A study of Mus musculus with 58 samples.

Results

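The genes described here are 49 genes of DNA replication and repair, taken as the 49 rows of the deposited count table that carry the symbols of the MCM2-7 helicase, the sliding clamp and its loader, the single-strand binding proteins, the replicative polymerases, the enzymes that process Okazaki fragments, mismatch repair and homologous recombination. They were 49 of 52459 gene symbols in the table. RNA was sequenced from 58 mouse retinas, each a library of its own, at ZT1, ZT5, ZT9, ZT13, ZT17 and ZT21, where ZT counts the hours after lights on in a cycle of 12 h of light and 12 h of dark. Diabetic retinas came from male Ins2Akita heterozygotes (strain C57BL/6-Ins2Akita/J), which carry a mutant insulin 2 gene and become hyperglycaemic. Control retinas came from wild-type male littermates (labelled C57/BL/6) that lacked the diabetic phenotype, and all mice were 4 months old and perfused with saline. There were 5, 6, 5, 5, 5 and 4 control libraries and 5, 5, 5, 4, 4 and 5 diabetic libraries at the 6 time points in the order given. Retinas of the night points were dissected under dim red light, so that time of night and this handling cannot be told apart.

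When a cell copies its genome, the MCM2-7 ring unwinds the double helix, replication protein A coats the exposed single strands, polymerase alpha with primase lays down primers, and polymerases delta and epsilon extend them while held to the template by the ring-shaped clamp PCNA. Okazaki fragments of the lagging strand are then trimmed and ligated, mismatch repair removes copying errors, and homologous recombination mends broken strands. Neurons of the adult retina do not divide, but the single-strand binding proteins, the clamp, the polymerases and the repair enzymes also serve repair synthesis in cells that have left the cell cycle.

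The promoters of 4 members whose results are described below are shown from RefSeq (build GRCm38.p6), as the 250 bases before the annotated start, read 5′ to 3′ on the strand of the gene. Mcm3 and Rad51c are shown because they had the largest fall and the rise that passed the test in both genotypes, Rpa1 because it was the most abundant member and peaked at night, and Mcm5 as another helicase gene. Capitals mark matches to the E2F letters TTTCCCGC, TTTGGCGC, TTTCGCGC and TTTGCCGC or to the E-box CACGTG, on either strand. The windows lie at chr1:20820313-20820562 (minus strand) for Mcm3, chr8:75109259-75109508 (plus strand) for Mcm5, chr11:87404955-87405204 (minus strand) for Rad51c and chr11:75348384-75348633 (minus strand) for Rpa1.
Mcm3: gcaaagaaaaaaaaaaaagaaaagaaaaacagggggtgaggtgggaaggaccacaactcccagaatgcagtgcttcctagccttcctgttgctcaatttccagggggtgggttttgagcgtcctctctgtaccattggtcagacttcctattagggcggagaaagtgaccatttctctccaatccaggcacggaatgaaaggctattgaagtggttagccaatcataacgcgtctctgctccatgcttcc
Mcm5: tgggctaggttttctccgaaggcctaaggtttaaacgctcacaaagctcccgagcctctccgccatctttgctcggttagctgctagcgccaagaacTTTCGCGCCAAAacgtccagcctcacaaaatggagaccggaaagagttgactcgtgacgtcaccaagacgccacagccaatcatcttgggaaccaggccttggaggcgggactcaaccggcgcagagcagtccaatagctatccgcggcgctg
Rad51c: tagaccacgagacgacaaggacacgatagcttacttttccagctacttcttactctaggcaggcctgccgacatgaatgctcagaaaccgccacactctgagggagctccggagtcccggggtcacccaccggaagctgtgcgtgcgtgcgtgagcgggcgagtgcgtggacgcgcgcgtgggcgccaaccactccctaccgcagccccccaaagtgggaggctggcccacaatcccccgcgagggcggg
Rpa1: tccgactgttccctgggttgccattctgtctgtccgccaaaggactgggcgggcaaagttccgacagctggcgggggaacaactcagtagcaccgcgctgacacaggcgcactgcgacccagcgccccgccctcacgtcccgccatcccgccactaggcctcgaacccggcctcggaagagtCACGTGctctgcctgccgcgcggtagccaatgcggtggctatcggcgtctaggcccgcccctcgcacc
The Mcm5 window held 2 overlapping E2F matches, 1 on each strand, the nearer 141 bases before the start. The Rpa1 window held 1 E-box, and the windows of Mcm3 and Rad51c held neither set of letters. E2F letters were found in 1.86% and the E-box in 6.02% of 32851 promoter windows of this length. A promoter was listed for 39 of the 49 members, too few for a share over the members to be given. A match describes the letters and not a bound site.

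Library totals ranged from 7773117 to 22147398 counts, with a median of 15406440. Of the members, 48 passed the filter of a median above 4 normalized counts and were tested with 19120 genes in all. Exo1, an exonuclease of mismatch repair, had a mean of 3.42 normalized counts and was not tested. Of the markers of retinal cells, 7 of 7 for cones, 7 of 7 for Müller glia and 8 of 8 for bipolar and amacrine cells passed the same filter. Of 13 markers of dividing cells 7 did not pass the filter, among them Mki67 at 0 in 18 libraries, Top2a at 0 in 29 and Aurkb at 0 in 43. The other 6 passed, with Ccna2, a cyclin, at a mean of 370.4, Plk1, Ccnb2 and Aurka at 17.3 to 18.7 and Cdc20 and Birc5 at 5.96 and 4.58 normalized counts. Lens markers set 3 control libraries apart, the ones in which they summed to over 1000, with summed normalized counts of 43469 in ZT1 replicate 6, 28837 in ZT17 replicate 5 and 33198 in ZT21 replicate 2, against a median of 16.2 over all libraries. Counts without these 3, an alternative chosen after seeing the data, are given beside the results. In whole retinas, fewer cells of a type and less RNA per cell cannot be told apart.

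Per kilobase of exon, Rpa1, the large subunit of replication protein A, had the highest level among the members at 287 normalized counts per kb. Pcna, the clamp, followed at 179 normalized counts per kb. Pold3, an accessory subunit of polymerase delta, was at 152, Pole4 of polymerase epsilon at 125, and Msh6 of the mismatch recognition complex at 114 normalized counts per kb. Nbn, a subunit of the complex that senses double-strand breaks, reached 86.2 and Fen1, the flap endonuclease, 85.1 normalized counts per kb. Mcm4 was the most abundant helicase gene at 55.2 and Pola1 the most abundant gene of polymerase alpha and primase at 52.8 normalized counts per kb. At the low end, Pole2 of polymerase epsilon was at 3.42, the recombination motor Rad54l at 1.85 and Exo1 at 0.406 normalized counts per kb. The level of Fen1 is uncertain, since 78.8% of its exon length overlaps another gene on the opposite strand and the strand setting of the counting was not given in the sources used here. Overlaps above 10% of exon length with a gene on the opposite strand were also present for Rnaseh2c, Rad54l, Rfc2, Rfc4 and Rfc5, and with a gene on the same strand for Pold4.

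Over the day the members as a set were lowest at ZT17 in both genotypes. The median member deviated by -0.11 ± 0.046 (SD, n = 5) on the log2 scale from its mean over all libraries in control retinas at ZT17, and by -0.15 ± 0.052 (SD, n = 4) in diabetic retinas. The highest values stood at ZT9, where the deviation was 0.084 ± 0.061 (SD, n = 5) for control libraries, and for diabetic libraries it was 0.081 ± 0.032 (SD, n = 5). Members took 0.0907 to 0.0994% of all counts in control libraries at ZT5 and 0.0771 to 0.0896% at ZT17, ranges that did not overlap. In diabetic libraries the shares were 0.0876 to 0.0949% at ZT5 and 0.0726 to 0.0854% at ZT17, again without overlap.

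**Figure D1:**
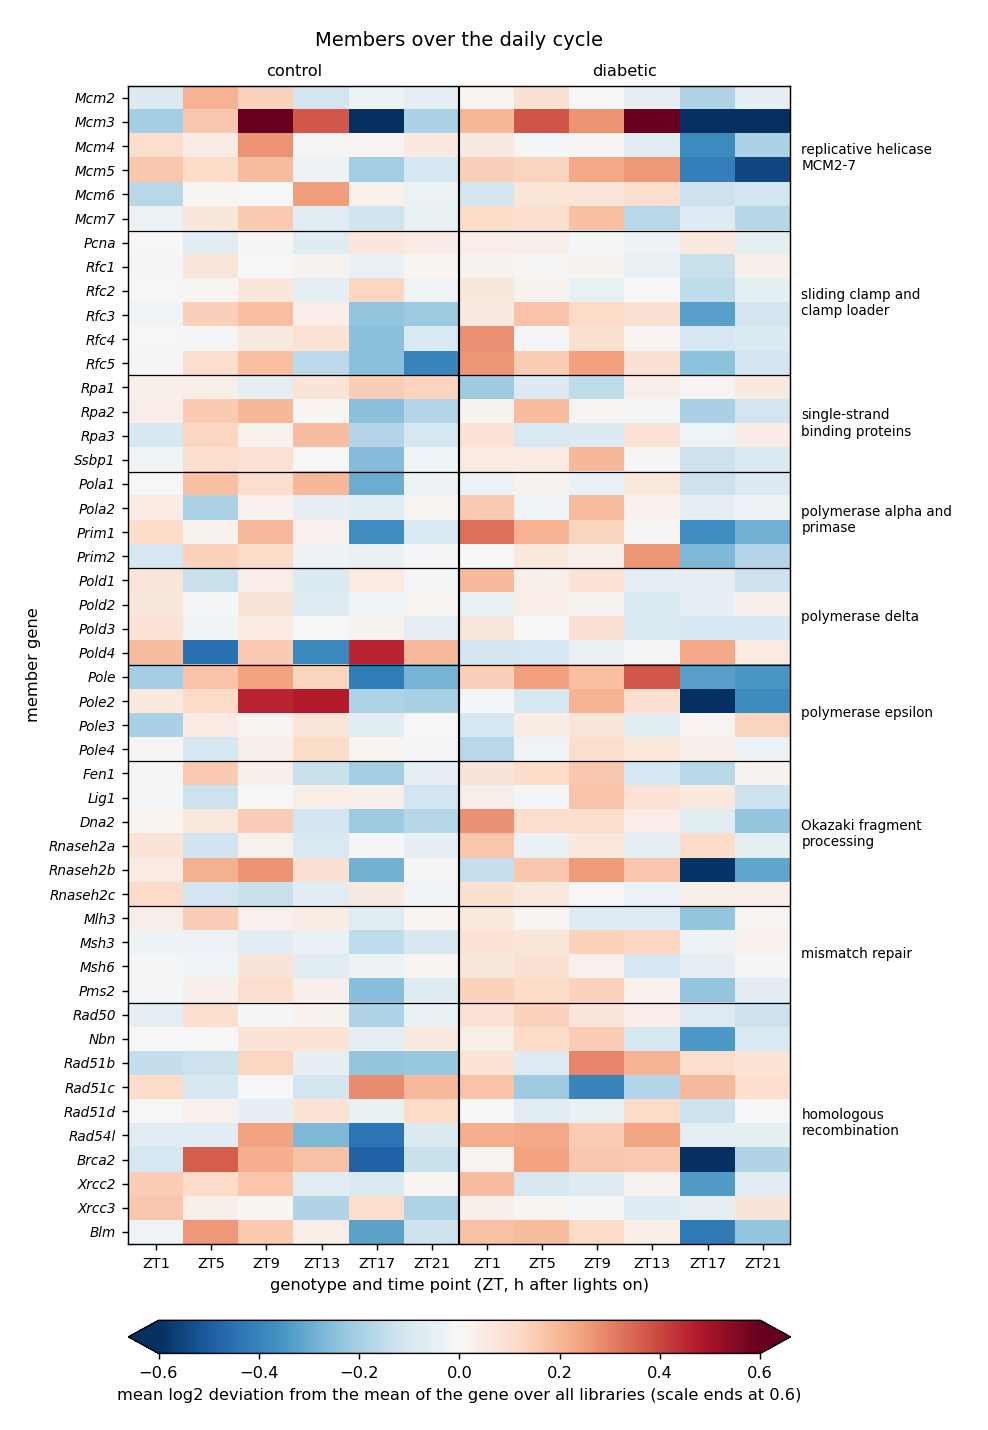
Each cell is the mean log2 deviation of 1 of the 48 tested members (vertical axis, by role) from its own mean over all libraries, in a genotype and time point (horizontal axis). Blue cells gather in the ZT17 columns of both genotypes, and the darkest blue cells there belong to Mcm3 and Brca2, with Pole2 and Rnaseh2b in diabetic retinas, while Rad51c was above its mean there. Colours are drawn to 0.6 in either direction.

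The comparison of midnight (ZT17) with midday (ZT5) asked how these genes differ between the dark and the light phase within a genotype. In control retinas 13 members fell and 2 rose by edgeR's quasi-likelihood test at a Benjamini-Hochberg adjusted p under 0.05, which is 15 of 48, against 15.1% of all 19120 genes called, 7.66% as lower and 7.42% as higher. The median change of the 48 members was -0.20 on the log2 scale, against -0.028 over all genes tested. In diabetic retinas 12 members fell and 1 rose, which is 13 of 48, against 7.36% of all genes called, 3.73% as lower and 3.63% as higher. Without the filter on low counts 9 diabetic members were called, against 2.57% of the genes then tested, and Mcm4, Rfc5, Rpa2 and Prim2 lost their diabetic call. With the filter, the median member change in diabetic retinas was -0.18 on the log2 scale, against -0.015 over all genes. Called in the same direction in both genotypes were 9 members, 60.0% of those called in control and 69.2% of those called in diabetic retinas. Over all genes the same shares were 30.4 and 62.3%, so that the diabetic share of the members lay near that of all genes. Of the tested members these were 18.8%, against 4.58% of all genes tested. These were Mcm3, Rfc3, Rfc5, Rpa2, Rnaseh2b, Pms2, Brca2 and Blm, all lower at midnight, and Rad51c, higher at midnight. With each library left out in turn, 10 of the 15 control and 7 of the 13 diabetic calls held in every fit. The control calls of Pola1 were lost in 4 fits, of Ssbp1 in 3 and of Rfc3, Pold4 and Rad50 in 1 each. The diabetic calls of Mcm4 were lost in 6 fits, of Rpa2 in 5, of Prim1 in 4, of Prim2 in 3, of Rfc5 in 2 and of Rad51c in 1. Without diabetic ZT17 replicate 5 the diabetic count was 8. The share of all genes called in that fit is not given here, so whether the lower count is particular to the members cannot be told. The control median was -0.147 without control ZT17 replicate 1 and -0.128 without control ZT17 replicate 3.

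Among the helicase genes, Mcm3, a subunit of the MCM2-7 ring, had the largest change. In control retinas its normalized counts at ZT5 were 17.3 at the lowest, 33.4 at the median and 36.1 at the highest of 6 libraries, and at ZT17 they were 19.2, 17.6, 16.4, 16.6 and 14.8. In diabetic retinas they were 36.0, 37.1, 36.0, 41.4 and 27.8 at ZT5 and 18.5, 14.1, 8.08 and 10.6 at ZT17. All diabetic ZT17 libraries lay below all diabetic ZT5 libraries, whereas in control retinas a single low ZT5 library fell within the ZT17 range. Mcm3 fell by 0.90 ± 0.18 (SE) on the log2 scale in control (edgeR adjusted p = 0.000473) and by 1.49 ± 0.20 in diabetic retinas (edgeR adjusted p = 7.68e-07). It is a low gene, with raw counts between 11 and 53 per library. Mcm4, another subunit of the ring, fell by 0.36 ± 0.11 (SE) in diabetic retinas (edgeR adjusted p = 0.0301). Its change in control retinas was -0.05 ± 0.099 (SE) on the log2 scale and did not pass the test. The other 4 ring subunits did not pass in either genotype, and the list as a whole had a median change of -0.23 in control and -0.31 in diabetic retinas.

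Of the clamp and clamp loader, Rfc3 and Rfc5, small subunits of the loader replication factor C, fell in both genotypes. Rfc5 had 119 at the lowest, 125 at the median and 133 at the highest normalized count in control libraries at ZT5, and 113, 96.1, 106, 85.0 and 92.5 at ZT17. All control ZT17 values of Rfc5 lay below all ZT5 values, and the same held in diabetic retinas. Rfc5 fell by 0.36 ± 0.10 (SE) on the log2 scale in control (edgeR adjusted p = 0.0141) and by 0.41 ± 0.11 in diabetic retinas (edgeR adjusted p = 0.0154). Rfc3 fell by 0.39 ± 0.11 (SE) in control (edgeR adjusted p = 0.0126) and by 0.51 ± 0.12 in diabetic retinas (edgeR adjusted p = 0.00462). Pcna itself changed by 0.13 ± 0.072 and 0.0048 ± 0.079 (SE) on the log2 scale and did not pass the test in either genotype.

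Rpa2, the middle subunit of replication protein A, was counted in control retinas at 195 at the lowest, 210.3 at the median and 229.9 at the highest at ZT5, and at 158, 170, 166, 169 and 129 normalized counts at ZT17. The groups did not overlap. Rpa2 fell by 0.41 ± 0.096 (SE) in control (edgeR adjusted p = 0.00253) and by 0.37 ± 0.10 in diabetic retinas (edgeR adjusted p = 0.0205), where the ZT17 values of 227, 147, 137 and 156 overlapped those of ZT5. Ssbp1, the single-strand binding protein of mitochondria, fell in control retinas by 0.35 ± 0.11 (SE; edgeR adjusted p = 0.0211). Rpa1 changed by 0.11 ± 0.065 and 0.10 ± 0.071 (SE) on the log2 scale in control and diabetic retinas and did not pass.

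The polymerase genes moved unevenly. Pola1, the catalytic subunit of polymerase alpha, fell in control retinas by 0.45 ± 0.14 (SE; edgeR adjusted p = 0.0260), with ZT17 values of 307, 509, 271, 389.9 and 435 normalized counts. The primase subunits Prim1 and Prim2 fell in diabetic retinas by 0.55 ± 0.16 and 0.35 ± 0.098 (SE; edgeR adjusted p = 0.0203 and 0.0193). Pole, the catalytic subunit of polymerase epsilon, fell in control retinas by 0.59 ± 0.17 (SE; edgeR adjusted p = 0.0145). Its diabetic change of -0.53 ± 0.18 had an edgeR adjusted p of 0.0573. The accessory subunit Pole2 had the largest change outside the called members, -0.80 ± 0.44 in diabetic retinas, and did not pass (edgeR adjusted p = 0.292). Pold4, the smallest subunit of polymerase delta, rose in control retinas by 0.87 ± 0.25 (SE; edgeR adjusted p = 0.0134), from 7.19 to 17.6 normalized counts at ZT5 to 14.4 to 29.7 at ZT17. These ranges overlapped and the gene is low, and 24.6% of its exon length is shared with another gene on the same strand. The 3 other polymerase delta subunits did not pass in either genotype.

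Rnaseh2b, a subunit of the RNase H2 complex that removes RNA from DNA, lay in control retinas between 148 and 176 normalized counts at ZT5 and at 90.2, 133, 104, 129 and 107 at ZT17. In diabetic retinas it was 139, 165, 157, 135 and 168 at ZT5 and 120.0, 65.8, 83.0 and 101 at ZT17. The groups did not overlap in either genotype. Rnaseh2b fell by 0.49 ± 0.12 (SE) in control (edgeR adjusted p = 0.00437) and by 0.73 ± 0.13 in diabetic retinas (edgeR adjusted p = 0.000212). The other subunits of the complex, Rnaseh2a and Rnaseh2c, did not pass the test in either genotype. Fen1, which removes the flaps of Okazaki fragments, fell in control retinas by 0.35 ± 0.10 (SE; edgeR adjusted p = 0.0127). In mismatch repair, Pms2, the endonuclease partner of the MutL complex, fell by 0.31 ± 0.075 (SE) in control and by 0.36 ± 0.082 in diabetic retinas (edgeR adjusted p = 0.00352 and 0.00298). It was the single member of the 4 tested mismatch repair genes to pass.

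Homologous recombination held both genes that fell and the gene that rose in both genotypes. Blm, a helicase that dissolves recombination intermediates, ranged from 246 to 305 normalized counts at ZT5 in control retinas and was 173, 215, 167, 182 and 198 at ZT17. In diabetic retinas it was 267, 247, 270.3, 313 and 239 at ZT5 and 188, 132, 220.3 and 166 at ZT17. No ZT17 library of Blm reached any ZT5 library of its genotype. Blm fell by 0.58 ± 0.098 (SE) in control (edgeR adjusted p = 3.44e-05) and by 0.60 ± 0.11 in diabetic retinas (edgeR adjusted p = 0.000138). Brca2, which loads the recombinase onto single strands, ranged from 333 to 515 normalized counts at ZT5 in control retinas and was 172, 287, 166, 294 and 248 at ZT17. Its diabetic values were 397, 422, 396, 329 and 336 at ZT5 and 255, 142, 252 and 193 at ZT17. The groups did not overlap in either genotype, and Brca2 fell by 0.83 ± 0.15 and 0.84 ± 0.17 (SE; edgeR adjusted p = 0.000136 and 0.000618).

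Rad51c, a paralog of the recombinase, went the other way. Its control values were 135 to 182 normalized counts at ZT5 and 178, 199, 206, 238 and 225 at ZT17. Its diabetic values were 137, 162, 162, 143 and 135 at ZT5 and 201, 181, 190.2 and 211 at ZT17. The groups overlapped slightly in control and not in diabetic retinas, and Rad51c rose by 0.38 ± 0.097 and 0.40 ± 0.11 (SE; edgeR adjusted p = 0.00650 and 0.0116). Without diabetic ZT17 replicate 5 the diabetic rise no longer passed. Rad50, a subunit of the break-sensing complex, fell in control retinas by 0.29 ± 0.078 (SE; edgeR adjusted p = 0.00904). Nbn, of the same complex, fell in diabetic retinas by 0.45 ± 0.10 (SE; edgeR adjusted p = 0.00297), and its control change was -0.06 ± 0.093.

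**Figure D2:**
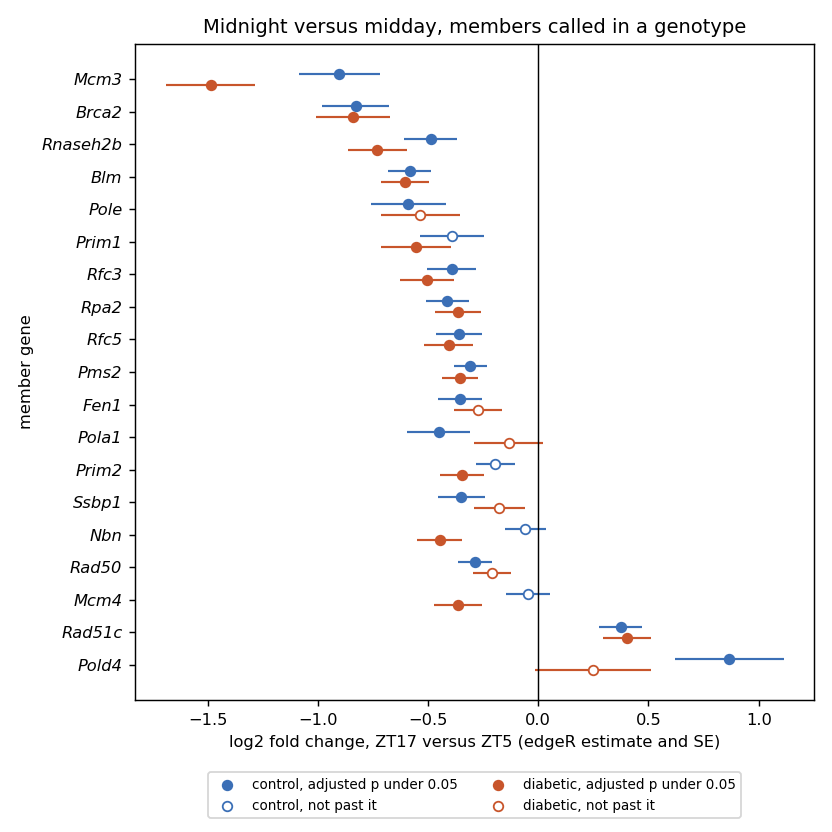
Points give the edgeR log2 fold change of ZT17 versus ZT5 (horizontal axis) with its SE as bars, for the members called in at least 1 genotype (vertical axis); filled points passed the adjusted p of 0.05 and open points did not. Mcm3 lies farthest to the left at -0.90 in control and -1.49 in diabetic retinas, and Rad51c and Pold4 lie to the right of 0.

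Counted without a model, all ZT17 libraries lay below all ZT5 libraries in control retinas for 5 members, Rfc5, Rpa2, Rnaseh2b, Brca2 and Blm, against 3.40% of all genes, and none lay wholly above, against 4.28% of all genes. In diabetic retinas this held for 10 members, against 3.56% of all genes, and Rad51c lay wholly above, against 3.40%. Besides members already given these included Mcm5, another subunit of the MCM2-7 ring, whose ZT17 values of 54.0, 44.7, 38.2 and 34.0 normalized counts all stood below its lowest ZT5 value of 55.6. Its change of -0.55 ± 0.19 had an edgeR adjusted p of 0.0649.

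Other measures were read at the same hours. The share of mitochondrial reads was under 1% in 3 ZT17 libraries, at 0.998 and 0.675% in control replicates 1 and 3 and 0.803% in diabetic replicate 3, and in 1 further library, diabetic ZT13 replicate 5, at 0.821%. Control libraries held 1.45 to 2.17% at ZT5 and up to 1.87% at ZT17. Diabetic libraries held 1.34 to 1.90% at ZT5 and up to 2.12% at ZT17, with medians of 1.489 and 1.499%. Control replicates 1 and 3 were the lowest 2 libraries of ZT17 for Brca2, Blm, Rnaseh2b and Pola1. For Rfc5 they were the highest 2, for Mcm3 replicate 1 was the highest, and for Rpa2 replicate 5 was the lowest. Without these 3 libraries, an alternative chosen after seeing the data, 10 control members were called, 9 lower and 1 higher, against 5.11% of all genes, and the control median was -0.11 on the log2 scale. Rfc3, Ssbp1, Pola1, Pold4, Rnaseh2b and Rad50 then lost their control call, with changes of -0.32, -0.19, -0.23, 0.54, -0.36 and -0.21 on the log2 scale in that order. Blm was still lower by edgeR at -0.50 (adjusted p = 0.00202), Brca2 at -0.58 (adjusted p = 0.0152) and Mcm3 at -0.95 (adjusted p = 0.00504). In diabetic retinas 12 members were then called, against 5.15% of all genes, and Mcm4, Rpa2, Prim1 and Prim2 lost theirs, with changes of -0.30, -0.31, -0.39 and -0.32 on the log2 scale. Pigment epithelium markers summed to 522 to 2187 normalized counts in control libraries at ZT5 and 1700 to 3173 at ZT17, with 4 of 6 tested markers called higher. In diabetic libraries they summed to 360 to 518 at ZT5 and 1100 to 2684 at ZT17, again with 4 of 6 called higher. Of 8 bipolar and amacrine markers, 5 were called higher at ZT17 in control and 2 in diabetic retinas. Müller glia markers summed to 48655 to 54253 normalized counts at ZT5 and 58599 to 65469 at ZT17 in control libraries, without overlap, and 2 of 7 were called higher. In diabetic libraries the sums were 44957 to 59259 and 55951 to 67898, which overlapped, and 1 of 7 was called higher. Dividing cell markers, a sum made up mostly of Ccna2, came to 417 to 591 at ZT5 and 385 to 589 at ZT17 in control retinas. In diabetic retinas the sum was 408 to 474 at ZT5 and 349 to 520.0 at ZT17, so that the ranges overlapped in both genotypes. Of the 6 tested, 0 were called in control and Aurka, a mitotic kinase, was called lower in diabetic retinas at -0.84 ± 0.26 (SE; edgeR adjusted p = 0.0302). Both tested lens markers were called higher at ZT17 in control retinas, with a median change of 5.17 on the log2 scale, and 0 of 2 in diabetic retinas. Without the 3 control libraries of high lens counts 16 control members were called, against 16.0% of all genes, with a median of -0.18, and 13 diabetic members, against 7.27%. The part of adhering pigment epithelium, of lens or of cell composition in the members' changes was not tested.

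The change from midday to midnight was not shown to differ between genotypes. By edgeR's interaction test 0 of 48 members passed, as did 0 of 19120 genes, and DESeq2 called 0 members too. At an unadjusted p under 0.05 there were 4 of 48 members, against 3.83% of all genes. The diabetic minus control difference of the change was -0.39 on the log2 scale for Nbn (95% interval -0.66 to -0.11) and -0.29 for Rfc2, a loader subunit (interval -0.50 to -0.09). For Mcm4 the difference was -0.32 (interval -0.61 to -0.02) and for Mcm3 -0.58 (interval -1.13 to -0.04).

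Daily rhythms were tested within each genotype over the 6 time points by a rank test against asymmetric waveforms of 24 h, with a member called rhythmic at an unadjusted permutation p under 0.05 and a fold of at least 1.25 between its highest and lowest library. In control retinas 19 of 48 members were rhythmic, against 21.8% of all genes, and in diabetic retinas 26 of 48, against 23.9%. With Benjamini-Hochberg adjustment the counts were 13 and 12, against 8.43 and 9.89%. A cosine test in edgeR called 12 and 19 members, against 12.2 and 14.3% of all genes. With ZT17 left out 12 control and 17 diabetic members were rhythmic by the rank test, against 14.2 and 16.2% of all genes, and with ZT21 left out 16 diabetic members, against 16.4%. With the fold of 1.25 taken between the highest and lowest time point means the counts were 14 and 19, against 13.2 and 14.2%. This ended the control calls of Mcm2, Mcm7, Prim2, Rpa1 and Xrcc2 and the diabetic calls of Fen1, Mlh3, Pold1, Pold3, Rad50, Rfc2 and Rpa1. Without the 3 ZT17 libraries of low mitochondrial share the counts were 17 and 21, against 18.4 and 21.0%. Pola1, Prim1 and Prim2 then lost their control call and Mlh3, Pold3, Rfc2, Rpa1, Rpa2 and Ssbp1 their diabetic call. Without the 3 control libraries of high lens counts 18 control members were rhythmic, against 20.2% of all genes, with Pola1, Prim2 and Rad51c no longer called. The acrophase, the time of the fitted peak, fell in the light phase for 17 of the 19 control and 24 of the 26 diabetic members. Over all genes called rhythmic the acrophase fell in the light phase for 50.8 and 48.2%, and such genes made up 11.1 and 11.5% of all genes tested. The day-peaking members peaked between ZT4.61 and ZT8.80 in control (median ZT6.83) and between ZT2.34 and ZT8.68 in diabetic retinas (median ZT5.71). Both genotypes called 17 members, against 11.9% of all genes. A further 2, Mcm2 and Pola1, were called in control alone, against 9.96% of all genes, and 9 in diabetic retinas alone, against 12.0%, while 20 were called in neither. The share of members called in each genotype does not show a difference between them. The edgeR test of that difference called 0 of 48 members and 0 of 19120 genes, and so did DESeq2. At an unadjusted p under 0.05 edgeR gave 1 member (Nbn), against 3.44% of all genes. Cell type markers were rhythmic in the same test. In control and diabetic retinas respectively it called 6 and 6 of 8 bipolar and amacrine, 4 and 4 of 7 Müller glia and 4 and 5 of 6 tested pigment epithelium markers, all with an acrophase in the dark phase. It called 5 and 5 of 7 cone markers, 3 of them in the light phase in each genotype, and 3 and 4 of 9 rod markers, 2 and 3 in the light phase. Of 6 tested dividing cell markers 1 and 2 were called, all in the light phase. Of 7 endothelium and pericyte markers 4 and 3 were called, 1 and 0 in the light phase. Of 7 ganglion cell markers 0 and 2 and of 7 microglia markers 1 and 2 were called, all in the dark phase. Their part in the members' rhythms was not tested.

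Mcm3 had the widest rhythm, with a relative amplitude of 38.2 ± 5.65% (SE) of its mean and an acrophase of ZT8.80 in control and 37.9 ± 7.85% at ZT7.56 in diabetic retinas. Its control permutation p of 1e-06 is the smallest the shuffled series can give. The mean normalized count of Mcm3 in control retinas was 23.7 ± 4.52, 31.1 ± 6.90, 43.2 ± 4.95, 35.2 ± 2.45, 16.9 ± 1.62 and 24.1 ± 5.15 (SD) from ZT1 to ZT21. In diabetic retinas it was 31.7 ± 6.94, 35.7 ± 4.91, 33.5 ± 7.98, 41.5 ± 7.68, 12.8 ± 4.54 and 17.7 ± 3.51. The low point was thus ZT17 in both, with the high point at ZT9 in control and ZT13 in diabetic retinas. The diabetic call of Mcm3 was lost with ZT21 left out.

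Brca2 had amplitudes of 24.3 ± 4.79 and 21.0 ± 4.81% (SE) and Pole with 23.9 ± 4.35% in control retinas. Rnaseh2b had amplitudes of 15.1 ± 3.81% in control and 24.8 ± 3.48% in diabetic retinas, and Blm 17.7 ± 2.53 and 19.0 ± 3.43%. The control call of Rnaseh2b was lost with ZT17 left out. Mcm5 was called in diabetic retinas at 23.3 ± 4.97% with an acrophase of ZT7.68. Night peaks belonged to 2 members in both genotypes. Rad51c peaked at ZT19.8 with 12.3 ± 3.46% in control and at ZT20.9 with 19.4 ± 2.74% in diabetic retinas. Its control call was lost with Benjamini-Hochberg adjustment (permutation test, adjusted p = 0.152) and with ZT5, ZT17 or ZT21 left out, while its diabetic call was kept under each of these. Rpa1 peaked at ZT18.8 with 5.90 ± 1.43% and at ZT16.7 with 7.91 ± 2.53%, and its fold between time point means was 1.15 in control and under 1.25 in both genotypes. Its diabetic call was also lost with Benjamini-Hochberg adjustment, and its control call with ZT17 left out. The helicase held 3 rhythmic genes of 6 in control and 4 in diabetic retinas, and homologous recombination 4 and 6 of 10, against the 21.8 and 23.9% of all genes. Of polymerase delta 0 of 4 genes were called in control and 2, Pold1 and Pold3, in diabetic retinas. Both of these calls were lost with Benjamini-Hochberg adjustment and with the fold of time point means, and that of Pold1 also in 17 of 28 fits that each left out 1 library.

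**Figure D3:**
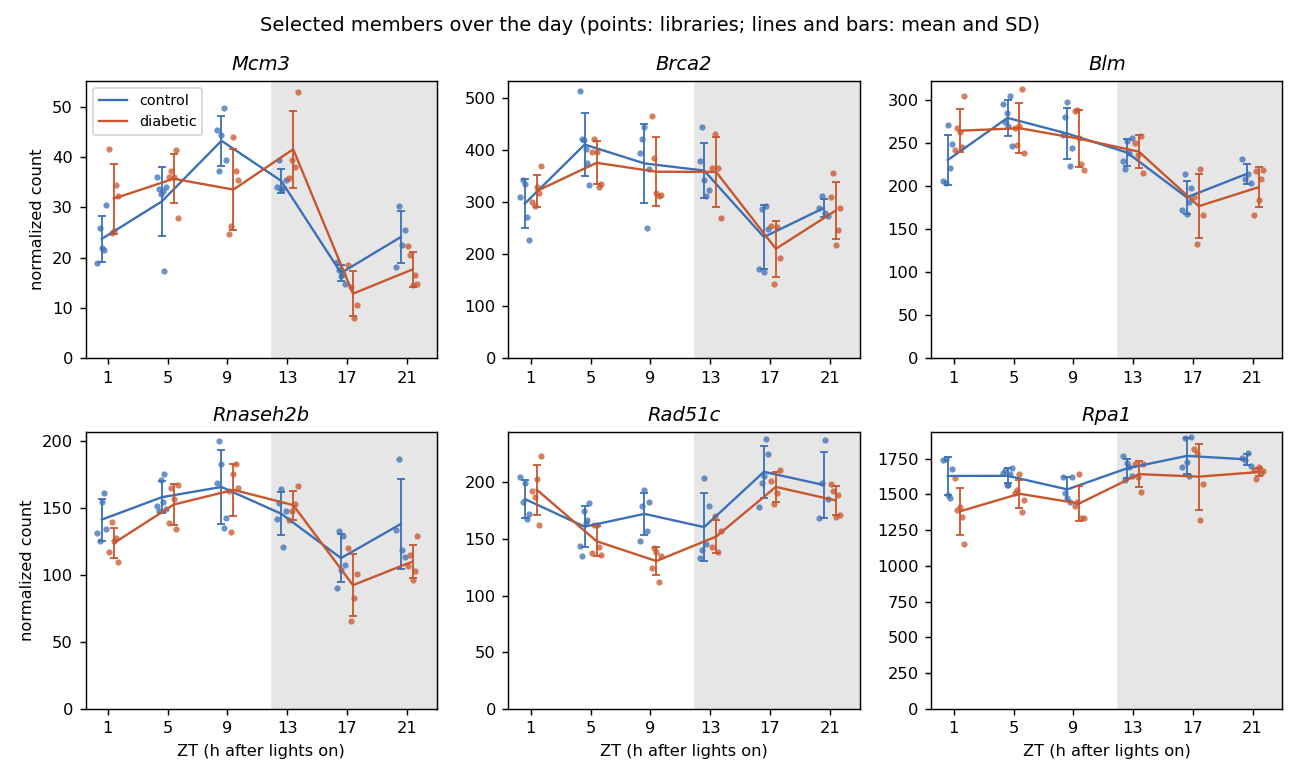
Normalized counts (vertical axis, from 0) of Mcm3, Brca2, Blm, Rnaseh2b, Rad51c and Rpa1 against ZT (horizontal axis), with each library as a point and the mean and SD of each group as lines and bars; the dark phase is shaded. Mcm3, Brca2, Blm and Rnaseh2b reach their lowest group mean at ZT17 in both genotypes, and Rad51c its highest control mean of 209 at the same hour.

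**Figure D4:**
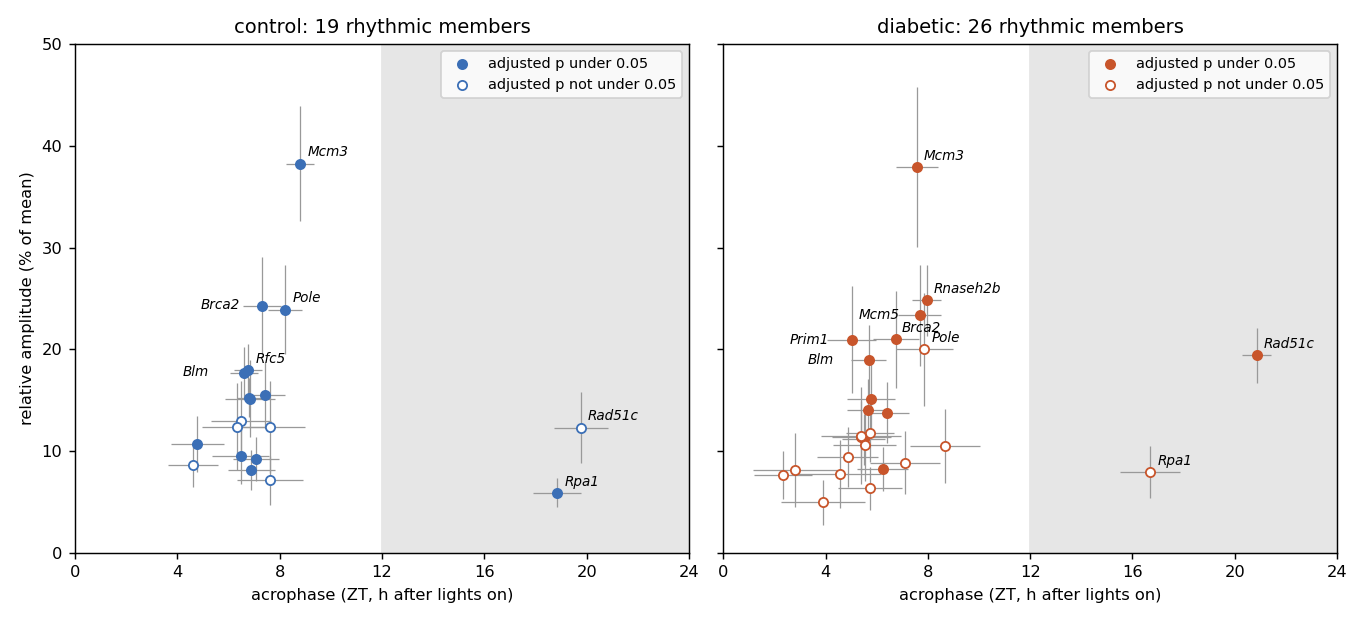
Acrophase (horizontal axis, ZT) against relative amplitude (vertical axis, percent of the mean) for the 19 members rhythmic in control and the 26 in diabetic retinas, with SE bars; filled points also passed the adjusted p. All but Rad51c and Rpa1 lie in the unshaded light phase, and Mcm3 stands highest at 38.2 and 37.9%.

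Among the 17 members rhythmic in both genotypes, 13 had an earlier acrophase in diabetic retinas, 76.5% of them. The median shift was -0.99 h with a range of -2.15 to 1.12 h. Mcm3 is counted as earlier by the fitted cosine, although its highest group mean came later in diabetic than in control retinas. Over the 2268 genes rhythmic in both, 70.6% had an earlier acrophase and the median shift was -0.63 h. The SE of the shift was 0.88 to 2.07 h for these members, with a median of 1.28 h, and 5 of the 17 had a shift larger than its SE. No test of the shift was made.

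Diabetic and control retinas were next compared over all time points together, and 3 of 48 members passed edgeR's test, against 2.99% of all genes called, 1.58% as higher and 1.41% as lower. The median member difference was -0.012 on the log2 scale, against 0.0012 over all genes. Of the cell type markers, 3 of 7 for cones, 2 of 9 for rods and 1 of 7 for microglia were called lower in diabetic retinas, with medians of -0.12, -0.089 and -0.078 on the log2 scale, and 7 of 7, 9 of 9 and 7 of 7 pointed lower. Their part in the members' differences was not tested. Msh3, a mismatch recognition protein for larger loops, was higher in diabetic retinas. It ranged from 664 to 1073 normalized counts with a mean of 889 ± 79.6 (SD, n = 30) in control and from 713 to 1155 with a mean of 978 ± 84.1 (SD, n = 28) in diabetic retinas. The ranges overlapped, and the difference was 0.14 ± 0.035 (SE) on the log2 scale (edgeR adjusted p = 0.0154).

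Rpa1 was lower in diabetic retinas, with a mean of 1534 ± 163 (SD, n = 28, range 1151 to 1817) against 1661 ± 114 normalized counts (n = 30, range 1443 to 1901). The difference was -0.12 ± 0.033 (SE; edgeR adjusted p = 0.0388). Mcm4 was lower as well, at 186 ± 27.6 (SD, range 125 to 230.4) against 209 ± 22.7 normalized counts (range 174 to 280.1), a difference of -0.17 ± 0.050 (SE; edgeR adjusted p = 0.0459). Both overlapped widely between genotypes. Leaving out any 1 of the 58 libraries kept the call of Msh3, ended that of Rpa1 in 18 fits and ended that of Mcm4 in 32. The call of Mcm4 was also lost with the replicate number as a block, without the filter on low counts and without the 3 ZT17 libraries of low mitochondrial share, and that of Rpa1 without the filter. With time point as a covariate 4 members were called by edgeR, against 4.81% of all genes: Msh3 (adjusted p = 0.00826), Rpa1 (adjusted p = 0.00720), Mcm4 (adjusted p = 0.0131) and Rfc5, higher in diabetic retinas at 0.15 (adjusted p = 0.0384). Without the 3 control libraries of high lens counts 1 member was called, Msh3, against 2.24% of all genes.

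**Figure D5:**
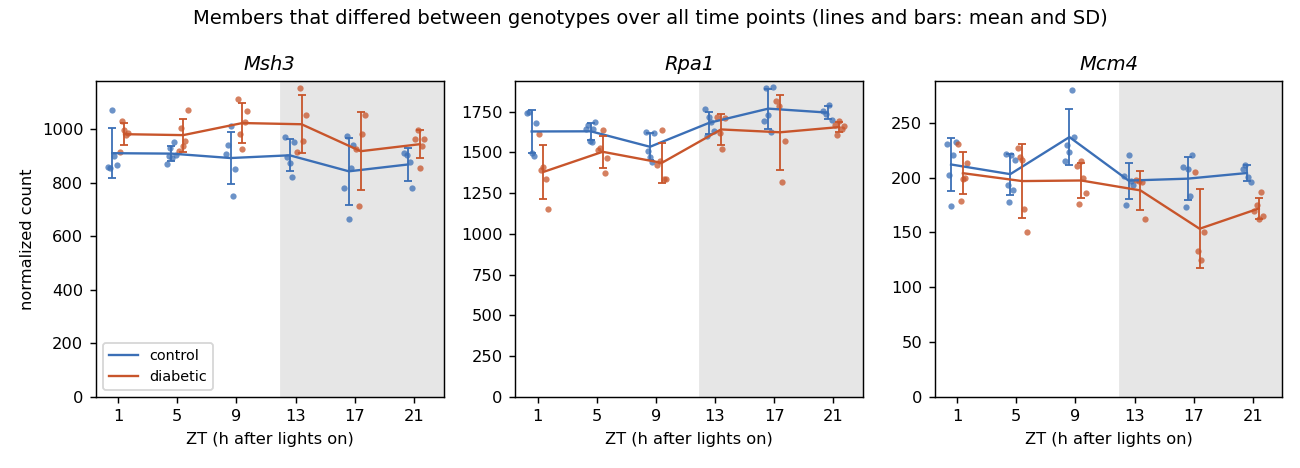
Normalized counts (vertical axis, from 0) of Msh3, Rpa1 and Mcm4 against ZT (horizontal axis), with each library as a point and group means and SD as lines and bars; the dark phase is shaded. The diabetic mean of Msh3 lies above the control mean at each of the 6 time points, and that of Rpa1 and Mcm4 below it, with points that overlap.

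At single time points edgeR called 0 of 48 members at each of the 6, against 0.0105, 0.0209, 0.00523, 0.0, 0.167 and 0.0% of all genes from ZT1 to ZT21. At an unadjusted p under 0.05 there were 6, 1, 5, 2, 7 and 6 members, against 5.5, 6.15, 4.49, 4.46, 8.82 and 4.67% of all genes. DESeq2 called 1 member, Rfc2 at ZT17 (adjusted p = 0.0352), where it called 0.455% of all genes, and 0 at the other time points. At ZT1 the smallest p belonged to Rpa1, at -0.23 ± 0.068 (SE) on the log2 scale (edgeR adjusted p = 0.460), followed by Rfc5 at 0.28 and Mcm3 at 0.42. At ZT9 it belonged to Rad51c, at -0.40 ± 0.11 (edgeR adjusted p = 0.304), followed by Xrcc2, a recombinase paralog, at -0.24 and Mcm4 at -0.26. The Rad51c diabetic mean at ZT9 was 131 ± 12.4 (SD, n = 5) against 172 ± 18.8 normalized counts (n = 5). At ZT17 Rfc2 differed by -0.29 ± 0.076 (edgeR adjusted p = 0.0969), ahead of Mcm4 at -0.38 and Xrcc2 at -0.26. Rfc2 had diabetic values of 331, 372, 391 and 351 and control values of 483, 387, 480.0, 410.3 and 442 normalized counts. These overlapped in a single pair of libraries. At ZT5 the 3 smallest p belonged to Xrcc2 at -0.22, Rpa1 at -0.12 and Pold1, the catalytic subunit of polymerase delta, at 0.18. At ZT13 they belonged to Prim2 at 0.30, Rfc5 at 0.24 and Msh3 at 0.18, and at ZT21 to Rnaseh2b at -0.32, Rfc5 at 0.27 and Mcm4 at -0.25. Rpa1 and Mcm4 had negative and Rfc5 and Msh3 positive differences wherever they are named here. They were named for small p-values in libraries that the comparison over all time points also used. Their shared signs are therefore no separate evidence.

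Neighbouring pathways were read in the same fits. Of 70 further genes of origin licensing and firing, base excision repair, nucleotide excision repair and non-homologous end joining, 67 were tested. At midnight 16 were called lower and 0 higher in control retinas, against 7.66% of all genes lower, with a median change of -0.14. In diabetic retinas 9 were lower and 0 higher, against 3.73% lower, with a median of -0.18. Origin genes gave 5 of 22 in control retinas, with Wdhd1 at -0.66 and Tipin at -0.48, both of the replication fork, and 2 of 22 in diabetic retinas, Wdhd1 at -0.49 and Tipin at -0.51. Nucleotide excision repair gave 5 of 19 in each genotype, among them Ercc8, a factor of transcription-coupled repair, at -0.38 and -0.50. Non-homologous end joining gave 5 of 9 in control, with the DNA ligase gene Lig4 at -0.48, and 1 of 9 in diabetic retinas. Base excision repair gave 1 of 17 in each. Between genotypes over all time points 2 of the 67 were called, a share no higher than the 2.99% of all genes, both lower in diabetic retinas, Smug1, a uracil glycosylase, by -0.18 and Gtf2h3, a subunit of the repair factor TFIIH, by -0.15. Rhythmic were 24 of 67 in control, 22 with an acrophase in the light phase, and 26 in diabetic retinas, 24 in the light phase, against 21.8 and 23.9% of all genes called rhythmic.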

How the data were processed

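The authors aligned the reads of ribosomal-RNA-depleted total RNA libraries (KAPA RNA HyperPrep with RiboErase) with STAR 2.7.4a to GRCm38.p5 with Gencode M15 and counted them with HTSeq 0.11.1. The deposited values are raw counts per gene symbol, and all columns were mapped to samples by title (0 unmapped). Coordinates and exon lengths came from Gencode M21 (GRCm38), promoters from RefSeq. Normalized counts are counts divided by DESeq2 size factors. Differences were tested with edgeR 4.0.16 (quasi-likelihood, R 4.3.3, Benjamini-Hochberg over all 19120 tested genes), with DESeq2 1.42.0 as an alternative. Rhythms were tested with a rank test written for this purpose in Python 3.11.15, with p-values from 1000000 shuffled series, in place of the tool named in the study's methods. The statistics were tested on simulated data. Among 113 replicate pairs none agreed within sampling noise. The study calls the libraries of a group biological replicates.

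The members and gene lists were chosen with earlier results of these data known. Named in the text are, per comparison, the members past the threshold (at most 8 of smallest p), otherwise the 3 of smallest p, the most abundant member of each list and, for midnight and rhythm, the 2 largest changes in each direction. Members beyond this rule (such as Mcm5 and the further called members) were named after their values were seen. Depth limits low genes such as Mcm3, Pold4 and Pole2. Intervals are 95% intervals of the fit.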

Additional observations from a re-analysis of the deposited data

Results flagged for a closer look

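For the 19 members called between midday and midnight, each of 76 groups of libraries was examined for a library far from the others, and 5 were found, where chance alone gives about 1 in 20 groups. The lowest control library of Mcm3 at ZT5, replicate 6, had 17.3 normalized counts, within the ZT17 range. For Rpa2 the lowest control library at ZT17, replicate 5, had 129 normalized counts. That library is 1 of the 3 with high lens marker counts, and without it Rpa2 was lower at midnight by edgeR at -0.35 on the log2 scale (adjusted p = 0.0147). For Pms2 the lowest control library at ZT5, replicate 3, had 244. The highest control library of Pold4 at ZT5, replicate 4, had 17.6 normalized counts. The highest diabetic library of Rad50 at ZT5, replicate 3, had 370.3 normalized counts.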

How the results depend on the processing

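Without the 3 ZT17 libraries of low mitochondrial share, chosen after seeing the data, the control median change was -0.113. DESeq2 called 1 member (Rfc2) between genotypes at ZT17. Without the filter on low counts 1 member (Msh3) was called over all time points, against 1.04% of all genes, and without the 3 control libraries of high lens counts, also chosen after seeing the data, again 1 (Msh3). Rhythmic control members numbered 12 with ZT17 left out and 12 by edgeR's cosine test, and rhythmic diabetic members 12 by adjusted p, 17 without ZT17 and 16 without ZT21. The causes were not tested. Leaving out 1 library at a time gave 11 to 19 control and 8 to 15 diabetic members between midday and midnight, the 8 without diabetic ZT17 replicate 5, with medians of -0.204 to -0.128 and -0.205 to -0.162. The control median was -0.147 without control ZT17 replicate 1 and -0.128 without replicate 3. It gave 16 to 23 and 20 to 26 rhythmic members, 1 to 3 over all time points, 0 to 1 at ZT17 and 0 to 0 for the other time points and both genotype differences. The shares of all genes called in these fits are not given here. Replicate numbers are shared between genotypes. Of 26 control and diabetic pairs of the same number and time point, 14 correlated above 0.1 (range -0.188 to 0.522). Over libraries of different groups the median correlation was 0.073 for the same number and -0.013 for other numbers. The labels do not say what a number stands for. The main fits left it out, and a fit with it as a block was an alternative. With the replicate block 16 control and 14 diabetic members were called at midnight, against 21.5 and 8.44% of all genes. That fit called 2 over all time points (Msh3 and Rpa1, without Mcm4), against 2.66%. By the cosine test it called 14 and 20, against 15.9 and 16.0%. At single time points it called 0 members, against 0.0 to 0.314% of all genes. For the genotype differences of the midnight change and of the rhythm it called 0, against 0.00523 and 0.0%. Of the values for single members under the other alternatives, 626 kept their side of the threshold and 122 fell short of it. Among the edgeR changes 0 reversed their direction. For the rhythm calls direction was not compared.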
